A study of Mus musculus with 10 samples.

Results

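The miR-10 and miR-99/100 family comprises 5 mature guide strands, mmu-miR-10a-5p, mmu-miR-10b-5p, mmu-miR-99a-5p, mmu-miR-99b-5p and mmu-miR-100-5p, written below without the species prefix of their table names. They were taken by name from the 1139 mature mouse miRNAs of the deposited tables, and all 5 were found and tested. Small RNA was sequenced in hearts of male C57Bl6N mice harvested 1 week after transverse aortic constriction (TAC), an operation that tightens the aortic arch so that the left ventricle pumps against raised pressure. The groups were 5 libraries labelled CITED4 knockout and 5 labelled floxed control, in which the gene carries recombination sites. Every library came after TAC, so no comparison with unoperated hearts is made. The labels give neither the Cre line, nor the cells that lost the gene, nor the age, and a table of miRNAs holds no value for the CITED4 transcript, so the genotypes are taken from the labels unchecked. Whether each library is a separate animal is not stated either. The p-values below therefore set group differences against the spread of these libraries, which may be technical, and may not carry over to animals. CITED4 itself acts in the nucleus as a partner of histone acetyltransferases.

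miRNAs bind messenger RNAs chiefly through the seed, the bases near their 5′ end, and lower the output of the bound transcripts. miR-10a and miR-10b are encoded inside Hox gene clusters, which set position along the body axis, and miR-10a is known to restrain inflammatory signalling in endothelium. The miR-99/100 guides are known to target the growth regulators Mtor and Igf1r, and they are encoded in clusters with let-7 and miR-125 members.

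The sequences show why the 5 guides form 2 groups that are close to each other. Each is the RefSeq mature sequence (GRCm38.p6), written 5′ to 3′ with the seed, bases 2 to 8, in capitals.
miR-10a-5p: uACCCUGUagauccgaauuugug
miR-10b-5p: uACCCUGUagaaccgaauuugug
miR-99a-5p: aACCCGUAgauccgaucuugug
miR-99b-5p: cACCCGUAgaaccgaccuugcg
miR-100-5p: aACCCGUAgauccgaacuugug

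The miR-10 pair shared the seed ACCCUGU and the miR-99/100 trio shared ACCCGUA. Among deposited miRNAs with a RefSeq mature sequence, 2 had the first seed and 3 the second, so each seed group lies wholly within the family. miR-10a-5p and miR-10b-5p differed at 1 base, U12A, with positions counted from 1 at the 5′ end and the base of the first-named miRNA given first. miR-99a-5p and miR-100-5p also differed at 1 base, U16A. miR-99b-5p stood further off, with 4 substitutions from miR-99a-5p (A1C, U11A, U16C and U21C). Between the groups, miR-10a-5p and miR-100-5p shared the run guagauccgaa, 11 bases that start at base 7 in the first and at base 6 in the second. That offset places the same stretch in different registers and gives the groups different seeds. How reads that match several miRNAs were counted is not given in the sources used here, so part of the reads of the pairs that differ at 1 base could have been exchanged between them.

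Each guide comes from 1 hairpin (positions on GRCm38, genes from GENCODE M21). The miR-10a hairpin lies on chromosome 11, 96317165 to 96317274, in no annotated gene and 993 bases from Hoxb4. The miR-10b hairpin lies on chromosome 2, 74726070 to 74726137, in an intron of Hoxd3 and of Hoxd4. The miR-99a hairpin (chromosome 16, 77598936 to 77599000) lies in an intron of the noncoding host gene Mir99ahg, 656 bases from the hairpin of let-7c-1 and 47272 bases from that of miR-125b-2. The miR-99b hairpin (chromosome 17, 17830188 to 17830257) lies in an intron of Spaca6, 94 bases from let-7e and 554 bases from miR-125a. The miR-100 hairpin (chromosome 9, 41531425 to 41531504) lies in an intron of the lincRNA Gm49317 and opposite an exon of the lincRNA Gm48742, 5211 bases from let-7a-2 and 50421 bases from miR-125b-1.

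Libraries held 7526091 to 18369483 counts. The edgeR filter on low counts kept 457 miRNAs, and each library's total was scaled with a TMM factor between 0.790 and 1.22. Levels below are CPM, counts over the scaled library total, brought to a common depth. All 5 guides were moderately abundant, between ranks 45 and 78 of the 457 by mean level. Their smallest count was 2902, so counting error was at most 1.86% of a value and the spread described below lies far above it. Together they took a median of 0.484% of all counts in controls (range 0.311% to 0.649%) and 0.544% in knockouts (0.489% to 0.726%). The miR-99/100 trio held the larger part, with a median of 0.362% in controls and 0.351% in knockouts, and the miR-10 pair held 0.175% and 0.215%. Read counts also depend on how well each sequence is ligated and amplified, and the guides are 22 or 23 bases long, so levels of different miRNAs are compared as counts only.

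mmu-miR-10a-5p, the Hoxb guide, was at 991, 693, 380, 1105 and 540 CPM in control replicates 1 to 5. In knockout replicates 1 to 5 it was at 963, 1135, 926, 830 and 868 CPM. Knockout libraries lay close together in or just above the upper part of the control range, whereas controls 3 and 5 were low, and the groups overlapped. The control mean was 742 ± 303 CPM and the knockout mean 944 ± 118 CPM, a fold of 1.27 (± is the SD over n = 5 libraries here and for every mean level). The log2 fold change was 0.35 ± 0.25 (SE) with a 95% interval from -0.18 to 0.88, and all 5 knockout libraries were above the control mean (unadjusted p = 0.18, adjusted p = 0.64 in edgeR's quasi-likelihood test). The difference was therefore within the spread between libraries. It was 0.21 without control 3 and 0.55 without control 4.

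mmu-miR-10b-5p, the Hoxd guide, was at 1027, 1097, 413, 1311 and 453 CPM in control replicates 1 to 5. In knockout replicates 1 to 5 it was at 930, 1237, 1447, 616 and 1077 CPM. Controls 3 and 5 were again the lowest libraries of all, and the highest control exceeded 4 of the 5 knockouts. The control mean was 860 ± 404 CPM and the knockout mean 1061 ± 314 CPM. The log2 fold change of 0.30 ± 0.32 (SE) had a 95% interval from -0.39 to 1.00 (adjusted p = 0.69, edgeR), and 4 of 5 knockouts were above the control mean. Leaving out control 3 or control 5 gave 0.16 or 0.15, about the size of the changes of miR-99b and miR-100, and leaving out control 4 gave 0.52.

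mmu-miR-99a-5p, the most abundant of the 5, was at 1717, 1489, 1751, 1442 and 1516 CPM in control replicates 1 to 5. In knockout replicates 1 to 5 it was at 1385, 1917, 1513, 1703 and 1604 CPM. The groups covered nearly the same range, and controls 3 and 5, low for the miR-10 pair, were not low here. Means were 1583 ± 141 and 1624 ± 201 CPM. The estimated log2 difference was 0.04 ± 0.13 (SE) with a 95% interval from -0.24 to 0.31 (adjusted p = 0.90, edgeR). This interval leaves out changes of the size of miR-10a-5p's estimate in either direction. The estimate was 0.00065 without knockout 2.

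mmu-miR-99b-5p, from the Spaca6 cluster, was at 1494, 1722, 1295, 1043 and 937 CPM in control replicates 1 to 5. In knockout replicates 1 to 5 it was at 1669, 1563, 1189, 1365 and 1454 CPM. The knockout range lay inside the control range, whose lowest libraries were controls 4 and 5. Means were 1298 ± 322 and 1448 ± 184 CPM, and the log2 fold change of 0.16 ± 0.17 (SE) had an interval from -0.22 to 0.53 (adjusted p = 0.69, edgeR). It was 0.07 without control 5 and 0.30 without control 2.

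mmu-miR-100-5p, the least abundant, was at 521, 487, 426, 388 and 352 CPM in control replicates 1 to 5. In knockout replicates 1 to 5 it was at 449, 500.1, 478, 470.0 and 479 CPM. Knockout libraries were tightly grouped inside the wider control range, with controls 3, 4 and 5 below every knockout and control 1 above every knockout. Means were 435 ± 69.3 and 475 ± 18.5 CPM. Its log2 fold change was 0.13 ± 0.13 (SE) with an interval from -0.15 to 0.41 (adjusted p = 0.68, edgeR), although all 5 knockouts were above the control mean. It was 0.07 without control 5 and 0.22 without control 1.

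**Figure D1:**
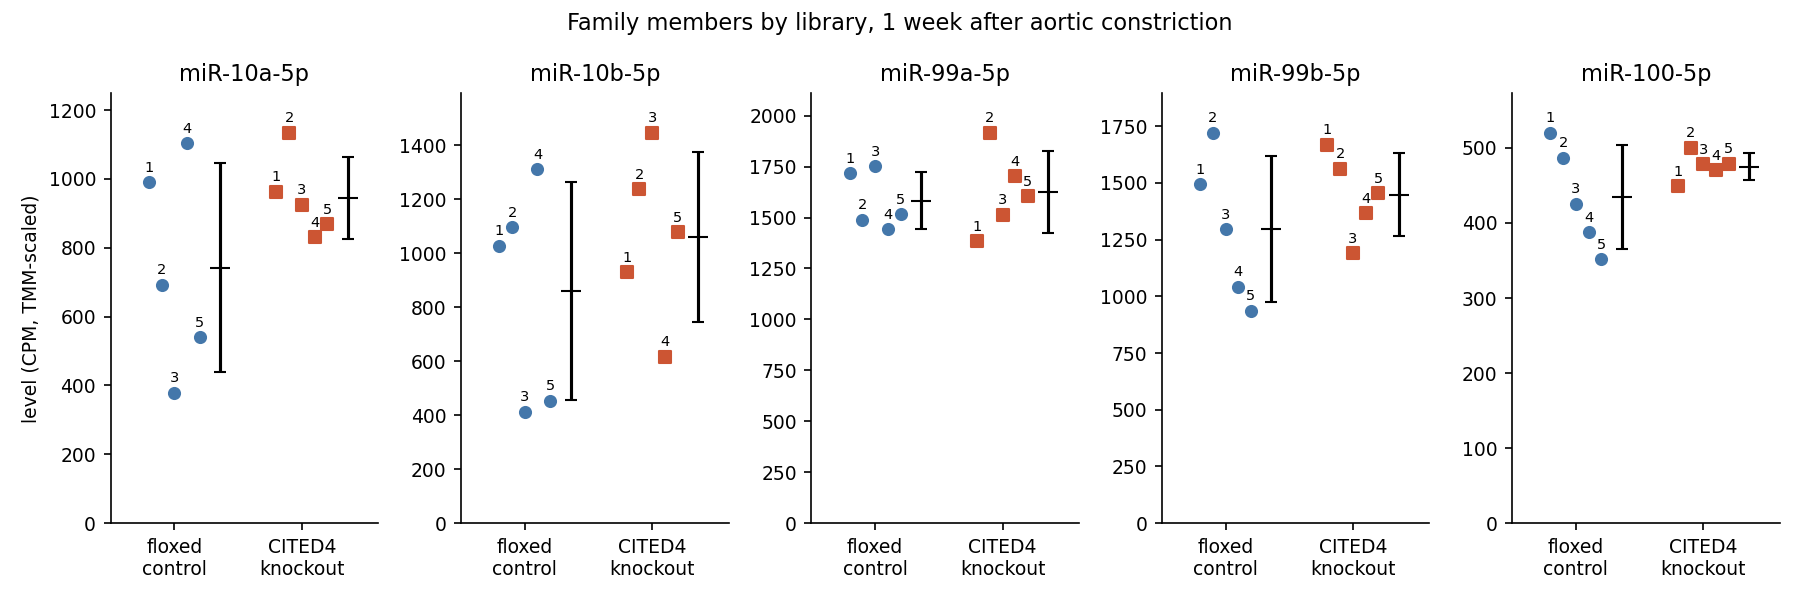
Level of each family member in every library, as CPM scaled with TMM factors on axes that start at 0. Circles are floxed controls and squares CITED4 knockouts, each marked with its replicate number, and the black bar is the mean ± SD of 5 libraries. Controls 3 and 5 are the lowest for both miR-10 guides, at 380 and 540 CPM for miR-10a-5p, and knockouts of miR-100-5p sit between 449 and 500.1 CPM.

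Of the 5 guides, 0 passed an adjusted p of 0.05 in edgeR's test, against 0% of the 457 miRNAs tested. At an unadjusted p under 0.05 the count was also 0 of 5, against 6.35% of all tested (2.84% higher and 3.50% lower in knockouts), and 0 had groups that did not overlap, against 0.656%. DESeq2, limma-voom and limma on the deposited normalized values also called 0 of the 5. All 5 fitted changes were above 0, as were 53.2% of those of all tested miRNAs, with 46.8% below. The median log2 fold change was 0.16 for the 5 guides and 0.03 for all tested. The sign was positive in all alternatives run. Scaling by library totals only moved the median of all miRNAs from 0.03 to 0.14. Relative to that median, miR-10a-5p was then at 0.35, miR-10b-5p at 0.29, miR-99b-5p at 0.12 and miR-100-5p at 0.08, whereas miR-99a-5p was at -0.0064, below the median instead of above it.

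Within libraries the order of the levels was miR-99a, miR-99b, miR-10b, miR-10a and miR-100 by mean CPM. Neighbours in this order did not hold it throughout. miR-99a-5p exceeded miR-99b-5p in 8 of 10 libraries, miR-99b-5p exceeded miR-10b-5p in 8, miR-10b-5p exceeded miR-10a-5p in 7, and miR-10a-5p exceeded miR-100-5p in 9. The pair that differ at 1 base, miR-99a-5p and miR-100-5p, kept an ordered and narrow ratio, with miR-99a-5p at 3.06 to 4.31 times miR-100-5p over the 10 libraries. So did miR-99b-5p, which differs from miR-100-5p at 4 bases and was at 2.49 to 3.72 times miR-100-5p. miR-10b-5p ranged from 0.742 to 1.58 times miR-10a-5p.

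Ratios within a library need no scaling factor and show whether relatives moved unequally. 7 ratios were compared between the groups by an exact two-sided permutation test, whose smallest possible p with 5 against 5 is 0.0079, and adjusted over the 7. The ratio of miR-10b-5p to miR-10a-5p had a geometric mean of 1.12 in controls and 1.09 in knockouts (difference -0.05 on the log2 scale, exact p = 0.84). miR-99a-5p over miR-100-5p was 3.67 and 3.40 (difference -0.11, exact p = 0.33), and miR-99b-5p over miR-99a-5p was 0.802 and 0.891 (difference 0.15, exact p = 0.43). The adjusted values were 0.97, 0.76 and 0.76, so no unequal change was detected between these relatives at this spread.

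The other arm of each hairpin, which is usually degraded, was rare. It made up 3.08% of both arms together for miR-10a, 2.82% for miR-99b, 1.55% for miR-100, 0.231% for miR-10b and 0.0779% for miR-99a. miR-10a-3p was at 23.3 ± 7.08 and 30.6 ± 4.93 CPM (log2 fold change 0.39 ± 0.21 SE) and miR-99b-3p at 33.2 ± 8.37 and 45.3 ± 18.4 CPM (0.45 ± 0.27). miR-100-3p was at 6.74 ± 1.78 and 7.64 ± 1.08 CPM, miR-10b-3p at 2.29 ± 0.569 and 2.21 ± 0.783 CPM, and miR-99a-3p at 1.08 ± 0.538 and 1.31 ± 0.391 CPM. Their smallest adjusted p was 0.64 in edgeR's test, and 0 of the 5 had an unadjusted p under 0.05. The 5p to 3p ratio was tested for the 4 hairpins with at least 10 counts of both arms in every library, which left out miR-99a. Among these 4, miR-10b had the widest gap between its arms, with 5p at 346 times 3p in controls and 485 times in knockouts (difference 0.49 on the log2 scale, exact p = 0.16, adjusted p = 0.76). With 1 library left out the difference ran from 0.30 without control 5 to 0.67 without control 2, where the exact p was 0.032 and the adjusted p 0.22. The 3p count of miR-10b was as low as 14, so counting error alone reached 26.7% there. The differences for miR-10a, miR-99b and miR-100 were 0.02, -0.20 and -0.08, with exact permutation p-values of 0.97, 0.44 and 0.69.

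The control libraries differed more in the miR-10 pair than in miR-99a and miR-100, and in knockouts this was so for miR-10b only. Among the 142 miRNAs with a mean of at least 100 CPM, the within-group SD of log2 CPM had a median of 0.26. It was 0.64 for miR-10b-5p, the sixth largest, and 0.46 for miR-10a-5p, at rank 27. It was 0.29 for miR-99b-5p (rank 63), 0.17 for miR-100-5p (rank 115) and 0.15 for miR-99a-5p (rank 120). In controls the highest library was 2.91 times the lowest for miR-10a-5p, 3.17 times for miR-10b-5p, 1.21 times for miR-99a-5p and 1.48 times for miR-100-5p. In knockouts the same ratios were 1.37, 2.35, 1.38 and 1.11. The SD of miR-10a-5p was 0.63 in controls and 0.17 in knockouts, the latter close to the 0.18 of miR-99a-5p.

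Over all 10 libraries some of the guides varied together, but with TMM scaling the pattern differed between the groups. Likeness was measured as Pearson's r of log2 CPM over the 10 libraries, with Spearman's rho beside it and no test, as a description of libraries that share depth and scaling. miR-10a-5p and miR-10b-5p went together (r = 0.84, rho = 0.66), as did miR-99b-5p and miR-100-5p (r = 0.81, rho = 0.70). miR-99a-5p, whose sequence is nearest to miR-100-5p, had r = 0.43 with miR-100-5p and 0.20 with miR-99b-5p, and with miR-10a-5p and miR-10b-5p it had -0.07 and -0.18. With TMM scaling both close relations rest on low controls. Without the libraries farthest from the median, controls 3 and 5 for the miR-10 pair and controls 4 and 5 for miR-99b and miR-100, r was 0.37 and 0.27. Within groups, the miR-10 pair had r = 0.91 in controls and 0.55 in knockouts. miR-99b-5p with miR-100-5p had 0.93 in controls and -0.23 in knockouts, so with TMM scaling this relation was seen in controls only. Scaled by library totals only, this pair had r = 0.95 over the 10 libraries, and its r within knockouts is not given. miR-99a-5p with miR-100-5p had 0.45 in controls and 0.86 in knockouts. In knockouts miR-100-5p hardly varied (SD of log2 CPM 0.056), so its r there cannot show which relative stood apart from it. These within-group values rest on 5 libraries each, and their differences were not tested. With library totals only, r for miR-99a-5p was 0.87 with miR-100-5p and 0.80 with miR-99b-5p, so its low values over all libraries depended on the scaling as well.

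**Figure D2:**
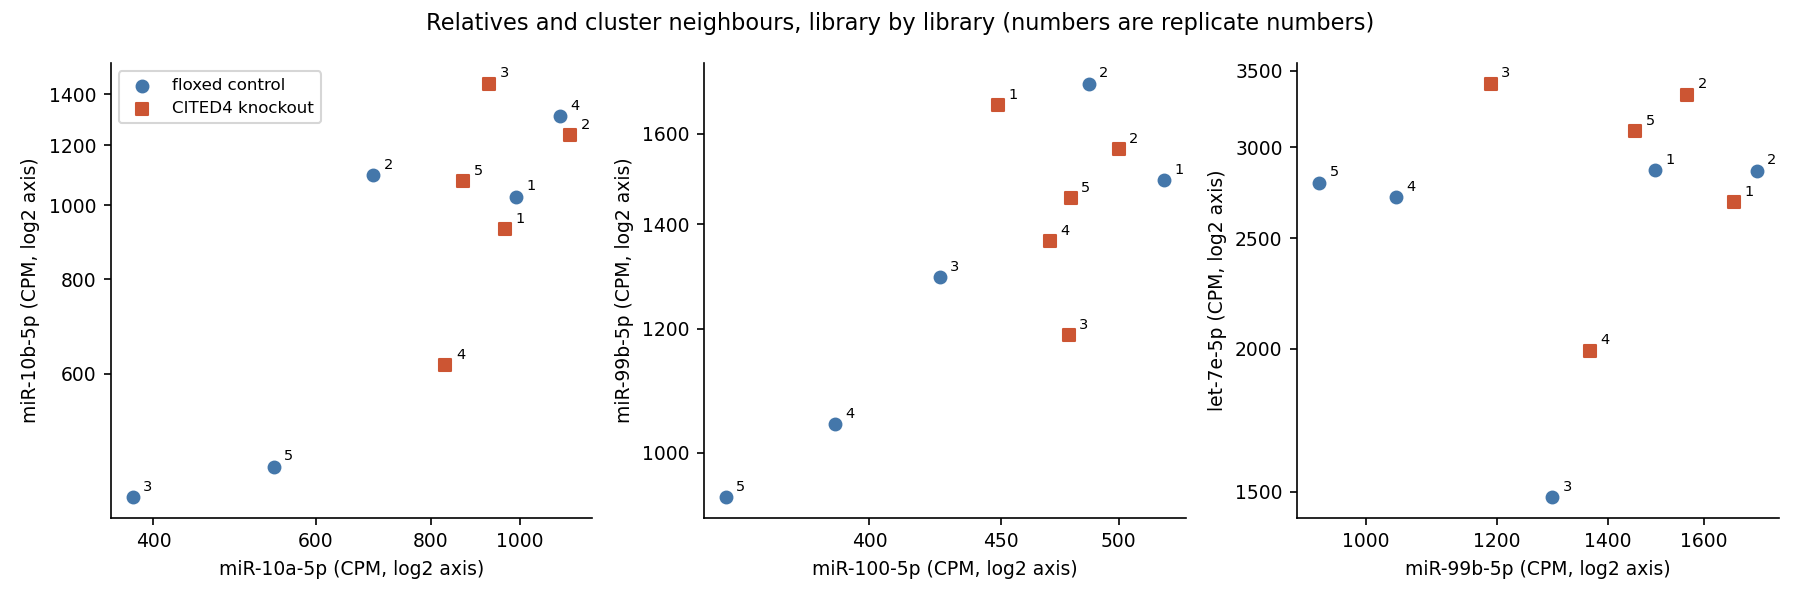
Levels of pairs of miRNAs in every library, as CPM on log2 axes, with circles for floxed controls, squares for CITED4 knockouts and replicate numbers beside the points. Left, the miR-10 pair, with controls 3 and 5 at the lower left. Middle, miR-100-5p and miR-99b-5p, with controls 4 and 5 at the lower left. Right, miR-99b-5p and its cluster neighbour let-7e-5p, which show no common order (r = 0.08).

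Outside the family, the miRNAs most like each guide were named by the 3 highest r among the other 456 tested, with identical rows counted once. For miR-10a-5p they were miR-365-2-5p (r = 0.88, rho = 0.85), a rare miRNA with a mean of 1.13 CPM, miR-669a-5p (0.85, rho = 0.43) and miR-10b-5p itself. For miR-10b-5p they were let-7i-5p (0.88, rho = 0.90), miR-1839-5p (0.85, rho = 0.56) and miR-10a-5p. let-7i-5p still had r = 0.94 with miR-10b-5p without controls 3 and 5, whereas without them miR-365-2-5p had 0.48 and miR-669a-5p 0.12 with miR-10a-5p. For miR-99b-5p they were miR-425-5p (0.92, rho = 0.89), miR-490-3p (0.91, rho = 0.89) and miR-351-5p (0.91, rho = 0.84). For miR-100-5p they were miR-503-5p (0.91, rho = 0.88), miR-300-3p (0.89, rho = 0.83) and miR-1247-5p (0.89, rho = 0.88). Without controls 4 and 5 the r values were, in the order given, 0.89, 0.91 and 0.68 for miR-99b-5p. For miR-100-5p they were 0.79, 0.68 and 0.61. For miR-99a-5p the highest values were lower, with miR-455-3p at 0.73 (rho = 0.67), miR-193a-3p at 0.72 (rho = 0.68) and miR-574-3p at 0.72 (rho = 0.76).

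Neighbours in the same hairpin clusters were compared as well. miR-125b-5p, which is made from the miR-99a locus and from the miR-100 locus, had r = 0.67 with miR-99a-5p (rank 7 of 456) and 0.77 with miR-100-5p (rank 39). The value with miR-100-5p was 0.47 without controls 4 and 5. miR-125b-5p also had 0.73 with miR-99b-5p, of another locus. miR-125a-5p had r = 0.81 with miR-99b-5p (rank 32), and 0.39 without controls 4 and 5. With miR-100-5p, of another locus, miR-125a-5p had 0.84. The let-7 neighbours had r near or below 0 over the 10 libraries. let-7e-5p had r = 0.08 with miR-99b-5p (rank 210), let-7c-5p had -0.32 with miR-99a-5p (rank 389), and let-7a-5p had -0.28 with miR-100-5p (rank 303). The sign of the last turned, to 0.59 without controls 4 and 5 and to 0.36 in knockouts alone. Without the libraries farthest from the guide's median, let-7e-5p had 0.27 and let-7c-5p -0.80, the latter with 0.09 in knockouts alone. let-7c-5p and let-7a-5p are also made from other loci, but let-7e-5p has a single hairpin. let-7e-5p had r = 0.77 with miR-10b-5p (rank 12) and 0.70 with miR-10a-5p (rank 14), miRNAs of other chromosomes. Without controls 3 and 5 these values were 0.89 and 0.29, and in knockouts alone 0.98 and 0.59. For let-7e-5p, control 3, at 1484 CPM, lay below the remaining controls, which held 2716 to 2867 CPM.

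The 3p arms of miR-125b differ between its loci and so tell them apart. The arms are shown because they separate the miR-99a locus from the miR-100 locus, with bases 2 to 8 in capitals.
miR-125b-2-3p: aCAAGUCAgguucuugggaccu
miR-125b-1-3p: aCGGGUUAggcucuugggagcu

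miR-125b-2-3p, from the miR-99a locus, had r = 0.63 with miR-99a-5p (rho = 0.65, rank 9) and -0.34 with miR-100-5p. miR-125b-1-3p, from the miR-100 locus, had r = 0.79 with miR-100-5p (rho = 0.78, rank 26) and 0.10 with miR-99a-5p. With miR-99b-5p, of another chromosome, miR-125b-1-3p had 0.78, so its high r was not particular to its own locus. In controls alone the 4 values with miR-99a-5p and miR-100-5p were, in the order given, 0.48, -0.57, 0.94 and 0.28. In knockouts alone they were 0.90, 0.97, 0.06 and -0.17. miR-100-5p hardly varied in knockouts (SD of log2 CPM 0.056), so the 0.97 and 0.06 with it there show little. In controls each arm thus had the higher r with the guide of its own locus, and in knockouts this could not be judged. With library totals only the 4 values over all libraries were 0.85, 0.52, 0.91 and 0.70, all positive. Each arm was then higher with the guide of its own miR-125b locus than with that of the other.

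**Figure D3:**
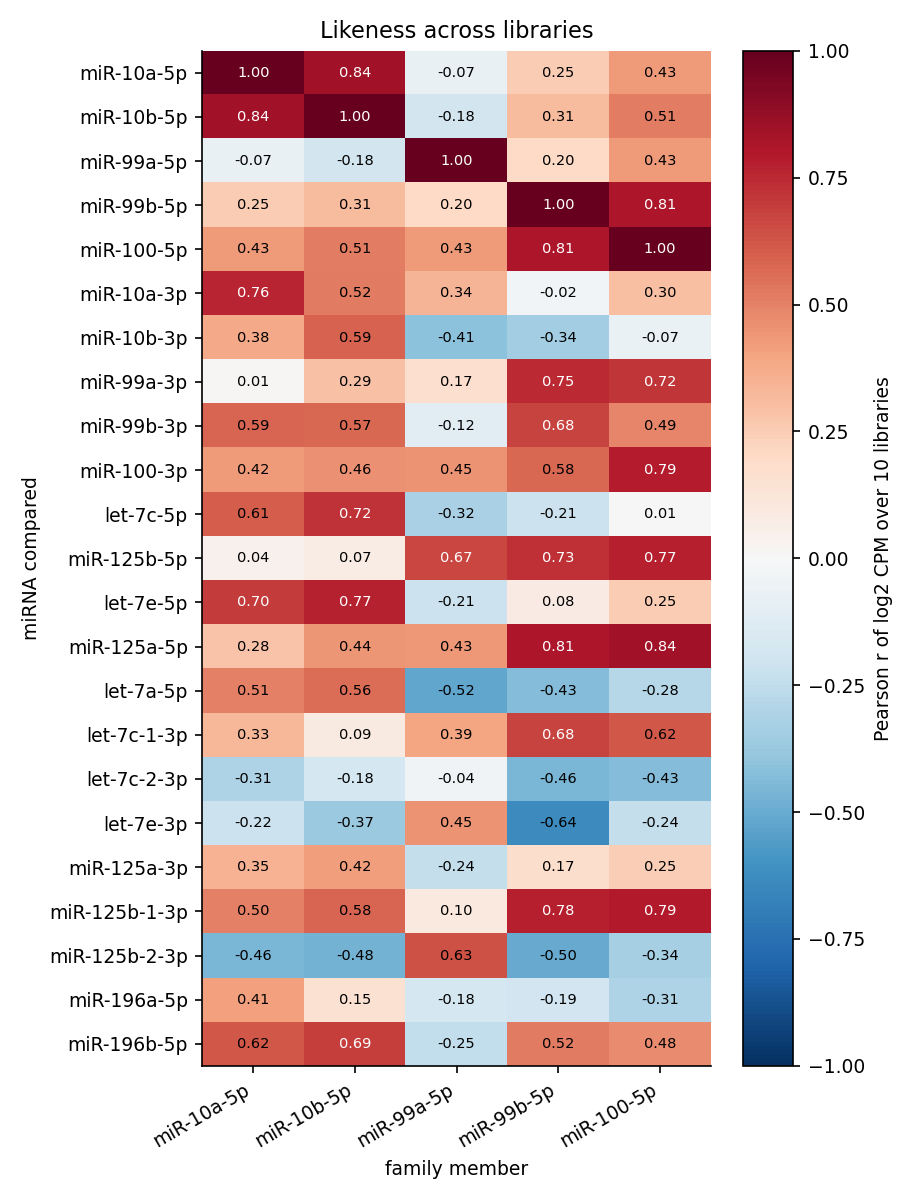
Pearson's r of log2 CPM over 10 libraries between each family member (columns) and the family, its other arms, cluster neighbours and Hox miRNAs (rows), with red for positive and blue for negative values. let-7a-1-3p is left out because its counts equal those of let-7c-2-3p. miR-125b-5p has 0.67, 0.73 and 0.77 with the miR-99/100 trio and 0.04 and 0.07 with the miR-10 pair, while let-7e-5p has 0.70 and 0.77 with the miR-10 pair.

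Of the 22 other arms, neighbours and Hox miRNAs named with the family, 19 passed the filter, with fitted changes above 0 for 13 and below 0 for 6. Their median log2 fold change was 0.12, and 0 of the 19 had an unadjusted p under 0.05, against 6.35% of all tested. miR-125b-5p was at 5991 ± 789 and 6263 ± 486 CPM and miR-125a-5p at 1991 ± 188 and 2161 ± 159 CPM. let-7e-5p was at 2545 ± 596 and 2906 ± 583 CPM, let-7c-5p at 42178 ± 10521 and 43767 ± 9140 CPM, and let-7a-5p at 44594 ± 13968 and 43562 ± 7399 CPM. The closest to a call was let-7c-1-3p, the other arm of the hairpin beside miR-99a, at 15.2 ± 3.63 and 20.5 ± 4.08 CPM (log2 fold change 0.42 ± 0.21 SE, adjusted p = 0.64 in edgeR's test). The Hox miRNAs miR-196b-5p and miR-196a-5p were rare, at 4.05 ± 2.50 and 4.65 ± 1.27 CPM and at 1.32 ± 1.18 and 1.68 ± 0.918 CPM. miR-615-3p had at most 5 counts in a library. miR-615-5p had 0 counts in every library, which allowed up to 0.399 CPM (3 counts of the unscaled total) in the shallowest. The 4 other Hox miRNAs thus lay far below miR-10a-5p and miR-10b-5p in every library.

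**Figure D4:**
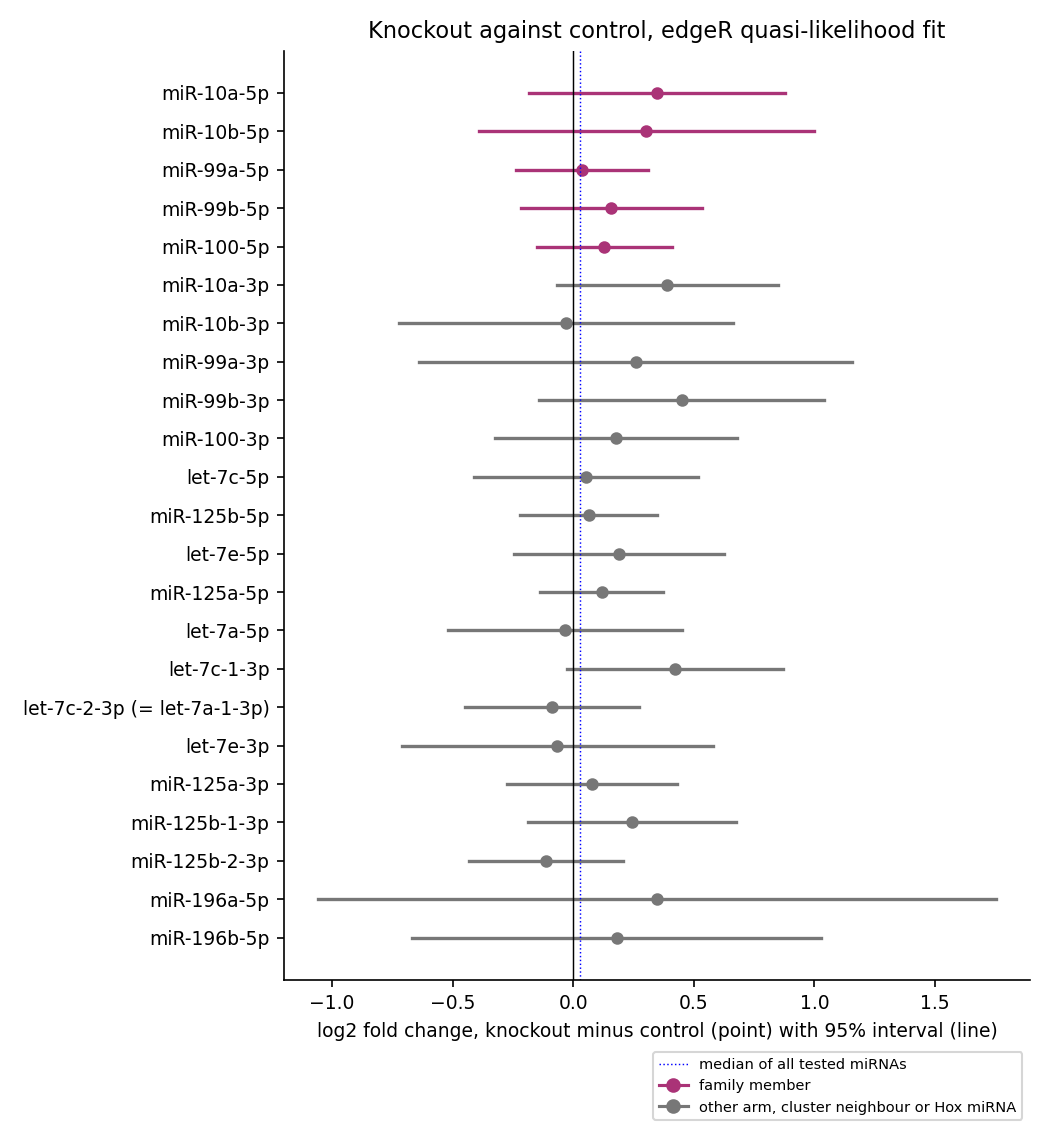
Log2 fold change of knockout against control (points) with 95% intervals (lines) for the 5 family members and for 18 of the 19 tested arms, neighbours and Hox miRNAs, let-7a-1-3p being left out as identical to let-7c-2-3p. The dotted line is the median of all 457 tested miRNAs, 0.03. Every interval includes 0, and those of miR-99a-5p and miR-100-5p are the narrowest in the family.

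In RNA of whole hearts, fewer cells of a type and less miRNA per cell cannot be told apart. The family is listed as one of vascular and mesenchymal cells, and its guides did not vary alike with the marker lists of these cells. The summed level of the 5 fibroblast and mesenchymal markers (miR-21a-5p, miR-199a-5p, miR-199a-3p, miR-199b-5p and miR-214-3p) had r = 0.82 with miR-100-5p, 0.78 with miR-99b-5p, 0.69 with miR-10b-5p, 0.61 with miR-10a-5p and 0.16 with miR-99a-5p over the 10 libraries. For comparison, the 90th percentile of r with all other tested miRNAs was 0.75 for miR-100-5p and 0.76 for miR-99b-5p. For miR-10b-5p, miR-10a-5p and miR-99a-5p that percentile was 0.61, 0.60 and 0.42. The summed level ranged from 38654 to 109010 CPM in controls and from 52566 to 132835 CPM in knockouts. In control 1, miR-199a-3p held 21683 of the 109010 CPM, so most of that sum lay in the other markers. r is given for the sum only, not for each marker. Controls 3, 4 and 5 held the 3 lowest sums, 40213, 46300 and 38654 CPM. Controls 4 and 5 were also the lowest libraries for miR-99b-5p and miR-100-5p, and controls 3 and 5 for both miR-10 guides. None of the r values with marker sums was computed within groups or without these libraries. All 5 of these markers had fitted changes above 0 (median 0.39), against 53.2% of all tested miRNAs, with 0 at an unadjusted p under 0.05. The 2 endothelial markers, both arms of miR-126a, had r between -0.54 and -0.01 with the guides and summed to 26220 to 35318 CPM in controls and 25223 to 34443 CPM in knockouts. The 4 smooth muscle markers, arms of miR-143 and miR-145a, had r between -0.58 and 0.14. Most of their sum was miR-143-3p, with 27361 of 28045 CPM in control 1. The 6 heart muscle markers summed to 242925 to 504570 CPM in controls and 220847 to 387114 CPM in knockouts. Their sum had r = -0.80 for miR-99b-5p, -0.64 for miR-100-5p, -0.47 for miR-99a-5p, -0.04 for miR-10a-5p and -0.03 for miR-10b-5p. These r values mostly follow miR-1a-3p, which held 238883 of the 242925 CPM in control 1 and 497444 of the 504570 CPM in control 4. Of these 6, 5 had fitted changes below 0 and 2 an unadjusted p under 0.05, with a median log2 fold change of -0.40. The 3 erythroid markers present had r between -0.71 and -0.63 with 4 of the guides and -0.03 with miR-99a-5p. All 3 had fitted changes below 0, against 46.8% of all tested, with a median of -0.49 and 0 at an unadjusted p under 0.05. Both endothelial markers were below 0, the smooth muscle markers were 2 above and 2 below, the 6 leukocyte markers 2 above and 4 below, and the 8 tested epithelial and other-organ markers 6 above and 2 below, with 0 at an unadjusted p under 0.05 in each of these lists. By edgeR, 0 of the tested markers had an adjusted p under 0.05. The part of these markers in the levels of the family was not tested.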

How the data were processed

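The authors deposited raw read counts per mature miRNA and a linear signal, each deposited count divided by 1 factor per library, equal to the DESeq2 size factor computed here. Tools listed in the submitters' processing notes, without roles, are Bowtie, STAR, DESeq2 and cutadapt 1.10, with the build GRCm38. Per the labels' protocols, a Bioo-Scientific NEXTflex kit was used on Trizol RNA. Not given in the sources used here are the multi-match rule, the miRNA release and any molecular identifiers, so counting errors leave out amplification.

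Counts were fitted with edgeR 4.0.16 (quasi-likelihood, TMM, filterByExpr, genotype only, R 4.3.3) and adjusted by Benjamini-Hochberg over 457 of 1139 miRNAs, tested on simulated data first. Standard errors come from the F statistic, and log2 CPM uses a prior count of 2. limma 3.58.1 and DESeq2 1.42.0 served as alternatives. Libraries of a group differed beyond sampling noise (chi-square per degree of freedom at least 108). The 5 members, the arms, cluster neighbours, Hox miRNAs and marker lists, and the rule of the 3 most alike, were chosen with earlier results of these data known. miR-451a, a listed erythroid marker, was not among the 1139 miRNAs under that name and so is not used here. Mature sequences were found for all 27 names. Replicate numbers were not taken as pairs in the main fit, since the labels do not say what they mark. Same-number correlations were 0.45, 0.38, -0.08, 0.40 and -0.12 for numbers 1 to 5. These do not show whether the numbers mark pairs, and a fit with the number as a block is given below.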

Additional observations from a re-analysis of the deposited data

Results flagged for a closer look

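Members, arms, neighbours, ratios, shares and library totals, 35 values in 70 groups of 5 libraries, were examined for a library whose gap to its nearest neighbour exceeded 0.71 of the group's range. 4 groups did, where chance alone gives 1 in 20, or 3.5, and none of the 5 guides was among them. let-7e-5p in control 3 was at 1484 CPM, below the remaining controls at 2716 to 2867 CPM. miR-100-3p in control 5 was at 3.64 CPM against 7.14 to 8.15 CPM. miR-125b-5p in knockout 2 was at 7103 CPM against 5895 to 6180 CPM. The log2 ratio of miR-10a-5p to miR-10a-3p in knockout 1 was 5.22 against 4.83 to 4.94.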

How the results depend on the processing

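The count of 0 miRNAs past an adjusted p of 0.05 was the same in every alternative fit, as was the higher mean of each of the 5 guides in knockouts. Their smallest adjusted p over the alternatives was 0.30 (limma-voom with sample weights, for miR-99b-5p). The log2 fold changes with 1 library left out ran from 0.21 to 0.55 for miR-10a-5p, 0.15 to 0.52 for miR-10b-5p, 0.00065 to 0.12 for miR-99a-5p, 0.07 to 0.30 for miR-99b-5p and 0.07 to 0.22 for miR-100-5p. The smallest unadjusted p among these was 0.036, for miR-10a-5p without control 4. With near-identical relatives summed, the log2 fold change was 0.34 for the miR-10 pair and 0.07 for miR-99a with miR-100. The replicate block gave 0.45, 0.40, 0.03, 0.18 and 0.14 in the order miR-10a, miR-10b, miR-99a, miR-99b and miR-100, and changed no call. By the deviations from group means, each library was compared with the 5 of the other group, and 4 of 10 were closest to the library with their number.

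The background of 29 miRNAs at an unadjusted p under 0.05 became 14 with library totals only, 102 of 1105 without a low-count filter, 16 of 282 with the stricter filter, 45 with DESeq2, 72 with the replicate block and 99 with limma-voom sample weights. It ran from 6 without control 5 to 84 without control 1. For most of these the cause was not tested; the filters change how many miRNAs are tested. Among ratios, leaving out 1 library turned miR-10b over miR-10a (-0.18 to 0.092), the arms of miR-10a (-0.16 to 0.15) and those of miR-100 (-0.16 to 0.056), none past the threshold. For the arms of miR-10b, the sign-flip test with the replicate block gave p = 0.0625 (exact, adjusted p = 0.44), the smallest p that 5 pairs allow, with all 5 same-number differences positive. Of 373 alternative values of arms and neighbours, 27 turned in sign and 0 were called. miR-10b-3p was 0.070 with library totals, 0.0051 without a filter and 0.0020 with identical rows counted once, the last chosen after seeing the data. let-7a-5p was 0.12 with library totals, 0.011 with limma-voom, 0.014 with limma on normalized values and 0.0082 with the block. With library totals let-7c-2-3p and let-7a-1-3p were 0.027 and let-7e-3p 0.0036. With 1 library left out the turned ranges were -0.17 to 0.12 for miR-10b-3p, -0.061 to 0.16 for let-7c-5p, -0.16 to 0.11 for let-7a-5p, -0.19 to 0.022 for let-7c-2-3p and let-7a-1-3p, -0.23 to 0.10 for let-7e-3p and -0.012 to 0.61 for miR-196b-5p. Of 37 likeness values, 8 moved with library totals and 0 with deviations from the group means.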
